A study of Caenorhabditis elegans with 4 samples.

Results

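The regions described here are the 630 NHR-11 ChIP-seq peaks on chromosome V of Caenorhabditis elegans, of 2836 peaks in the peak list that covers the series as a whole, here named the series-wide list. Every peak listed on chromosome V was taken. Each ChIP replicate also had a list of its own, with 83 peaks on V of 328 in replicate 1 and 54 of 258 in replicate 2. Chromosome V was divided by peak midpoint into a left arm (below position 6000000, 170 peaks), a right arm (above position 16500000, 133 peaks) and a centre between them (327 peaks), and it was set against the other autosomes, I to IV, which held 1621 peaks. All positions are on the WormBase WS220 build.

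The series held 4 samples of late embryos, 2 anti-GFP ChIP and 2 input, where input is total DNA taken before the precipitation. All came from strain OP305, hermaphrodites kept at 20 °C, which carries the mutation unc-119(ed3) and the bombarded transgene wgIs305, an nhr-11 gene joined to the tags TY1, EGFP and FLAG, with unc-119 in the same construct as a rescue marker. The genotype lists no mutation of nhr-11 itself, and the signal reports the tagged protein in whole embryos, with all cell types pooled. Whether the replicates were separate cultures is not in the labels, so the spread between them may be technical, and read depth is unknown because the lists give no counts.

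Nuclear hormone receptors are transcription factors that contact DNA through a zinc-finger domain and often respond to small lipophilic ligands. The nematode lineage has expanded this family greatly. The gene table of a later assembly, WBcel235, lists 269 protein-coding genes with nhr- names, of which 167 (62.1%) are on chromosome V, while V carries 25% of all protein-coding genes. The gene for NHR-11 itself is listed on chromosome IV. On C. elegans autosomes, the arms recombine often, are rich in repeats and lie near the nuclear envelope, whereas the centres recombine little and hold more of the conserved genes. Peaks could not be assigned to genes, since no annotation of WS220 was used here, and regions are named by position.

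Peak density did not differ between the arms and the centre of chromosome V beyond the counting error. The series-wide list had 28.3 peaks per Mb in the left arm (95% exact Poisson interval 24.2 to 32.9) and 30.3 in the right arm (25.3 to 35.9), against 31.1 in the centre (27.9 to 34.7). The ratio was 0.910 for left arm over centre (0.751 to 1.098), 0.972 for right arm over centre (0.788 to 1.192) and 0.936 for left over right arm (0.742 to 1.184). None of the 3 passed a two-sided exact binomial test of 2 counts given the lengths (Benjamini-Hochberg adjusted p = 0.799 for each). In the list of replicate 1 the densities were 4 peaks per Mb in the left arm and 3.87 in the right arm, against 4 in the centre. In the list of replicate 2 they were 1.83 and 3.64, against 2.57. The left arm of replicate 2 was the lowest of these and its right arm the highest, but their ratio of 0.504 (0.211 to 1.155) missed the threshold (adjusted exact p = 0.245). Neighbouring peaks are not independent, which makes these intervals too narrow and these p-values too small.

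**Figure D1:**
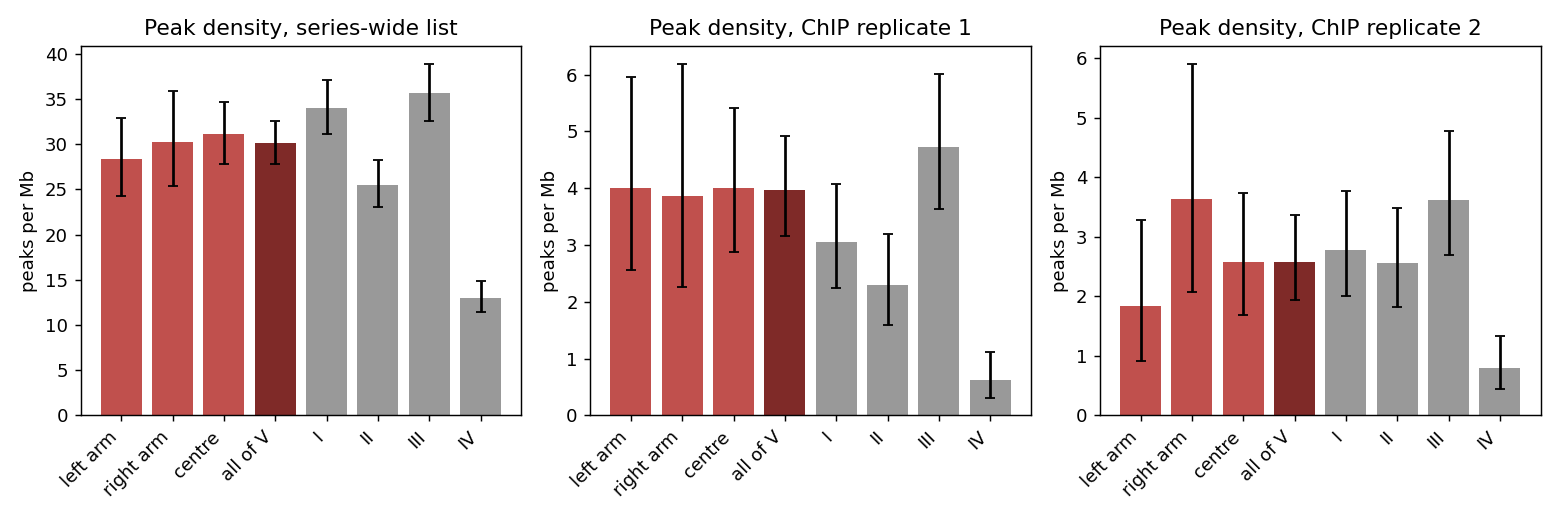
Peaks per Mb in the 3 zones of chromosome V, on all of V and on the other autosomes, in the series-wide list and each replicate list; error bars are 95% exact Poisson intervals of the counts. The 3 zones of V sit between 28.3 and 31.1 peaks per Mb in the series-wide list, and chromosome IV lies at 13 peaks per Mb.

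Against the other autosomes, V lay in the middle. Its 30.2 peaks per Mb compare with 34 on I, 25.5 on II, 35.6 on III and 13 on IV. The ratio of V was 2.31 over IV (1.985 to 2.70, adjusted exact p = 1.605e-29) and 1.18 over II (1.04 to 1.34, adjusted exact p = 0.0128). It was 0.887 over I (0.788 to 0.999, adjusted exact p = 0.0477) and 0.846 over III (0.751 to 0.954, adjusted exact p = 0.01). Over I to IV together V was higher, at 1.15 (1.04 to 1.26, adjusted exact p = 0.01). That call ended when IV was left out, with a ratio of 0.955 over I to III (0.868 to 1.050, exact p = 0.341, a single test). The excess over IV passed the test in both replicate lists too, at 6.32 in replicate 1 (3.35 to 13.1, adjusted exact p = 1.07e-11) and 3.23 in replicate 2 (1.77 to 6.30, adjusted exact p = 0.000123). The difference from I and III passed it in neither replicate list, and the ratio over I was 1.30 in replicate 1 and 0.927 in replicate 2. The excess over II passed in replicate 1 (1.73, adjusted exact p = 0.0110) and not in replicate 2 (1.01). Neighbouring peaks are not independent here either. Series-wide counts in 1 Mb bins of V had a variance 2.26 times their mean, where the test takes the 2 as equal. The intervals against the other autosomes are therefore too narrow and the p-values too small, which bears most on the call over I. No correction was made, so the calls over II, III and I to IV together may not hold either. Counted in covered base pairs, V had 0.788% of its length in peaks, against 0.896% on I, 1.07% on II, 0.934% on III and 0.519% on IV, so the order of V and II turned round.

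Within the zones density varied from stretch to stretch. Counted in steps of 1 Mb, whole bins of V held between 17 and 45 series-wide peaks, with a mean of 29.4 over 20 bins and a variance 2.26 times the mean. The densest stretch was the last one, V:20000001-20894334, with 42 peaks (47 per Mb). The next was V:6000001-7000000, at the start of the centre, with 45 peaks, followed by the first bin, V:1-1000000, with 43. The sparsest bins held 17 peaks each, V:2000001-3000000 in the left arm and V:17000001-18000000 in the right arm. The replicate lists did not share these peaks evenly. In the first bin replicate 1 had 8 peaks and replicate 2 had 1, whereas both had 7 peaks in V:18000001-19000000 and 3 in the last bin. In the bin at the start of the centre replicate 1 had 4 and replicate 2 had 2.

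Both ends of V were denser than the rest of it, a pattern described after the bins were seen and not tested. The first 1 Mb held 43 peaks and the last 1 Mb held 48, against 28.5 peaks per Mb in between. The other autosomes had the same order. The first and last 1 Mb held 43 and 36 peaks against 33.1 per Mb in between on I, 38 and 41 against 23.4 on II, 40 and 60 against 33.2 on III, and 28 and 23 against 11.4 on IV. On V, 8 of the 43 peaks of the first 1 Mb were in a replicate list (18.6%) and 5 of the 48 of the last (10.4%), against 17.1% of those in between and 15.0% of all series-wide peaks, so support at the ends lay near the background.

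**Figure D2:**
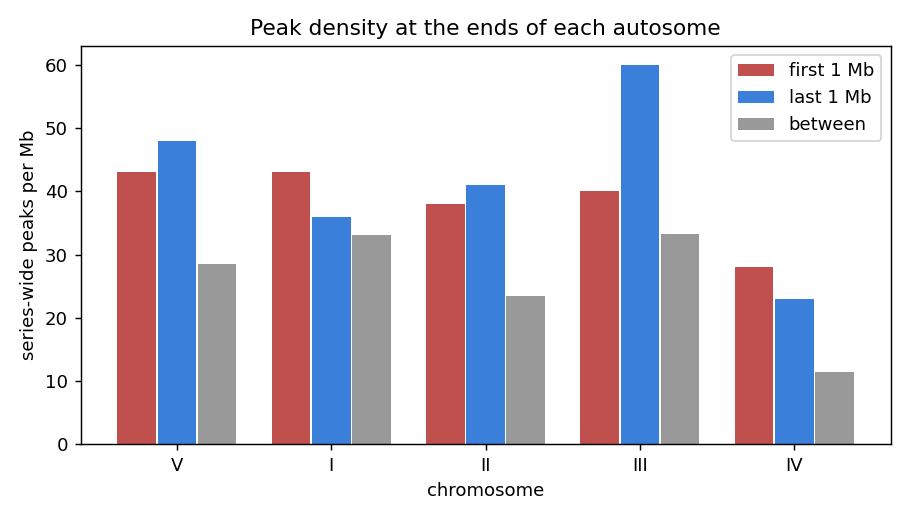
Series-wide peaks per Mb in the first 1 Mb, the last 1 Mb and the stretch between them, for chromosome V and the other autosomes; each bar is 1 count over its length. On V the ends stand at 43 and 48 peaks per Mb and the rest at 28.5, and on every other autosome both end bars are above the middle.

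Short gaps between neighbouring peaks were more frequent in the right arm than elsewhere on V. The gap from a peak to the next, edge to edge, had a median of 11684 bp in the right arm (95% order-statistic interval 8195 to 22409) and 19070 bp in the left arm (14515 to 25300), against 19675.5 bp in the centre (16784 to 22692). These intervals overlap. The difference lay among short gaps, since the upper quartiles were alike, at 47558.8 bp in the right arm and 46155 bp in the left arm, against 45699.5 bp in the centre. Gaps under 2000 bp made up 27 of 132 gaps in the right arm (20.5%) and 13 of 169 in the left arm (7.69%), against 24 of 326 in the centre (7.36%). The right arm stood 13.1 percentage points above the centre (95% Newcombe interval 6.22 to 21.1), and 7.85 points above it in the best-scored 50% of the list (0.566 to 18.6). The left arm stood 0.330 points above it, with an interval of -4.27 to 5.88. The same fraction of the right side of I to IV had 30 of 350 short gaps (8.57%), 11.9 points below the right arm of V (4.99 to 19.9). Those shares were 6.93% on I, 8.33% on II, 13.1% on III and 2.17% on IV, and III too was above its own centre (7.51%). Left sides of the same fraction as the left arm had 12.95% on I, against 7.06% in its centre. They had 11% on II, 7.81% on III and 8.22% on IV. Over the whole chromosome, 64 of 629 gaps on V were that short (10.2%), against 142 of 1617 on I to IV (8.78%), a difference of 1.39 points whose interval of -1.20 to 4.30 included 0. The 2000 bp limit and the comparisons of right and left sides were chosen after the spacing was seen. Because short gaps lay side by side in places, gaps are not independent. The intervals of these differences, here and in the next paragraph, are therefore too narrow.

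Short gaps gathered into runs, defined as at least 3 peaks with gaps of no more than 2000 bp. Chromosome V had 14 runs with 48 peaks (7.62% of its peaks), against 19 runs with 63 peaks on I to IV (3.89%). By chromosome the share was 2.93% on I, 6.92% on II, 3.26% on III and 2.19% on IV, so II was close to V. The right arm held 5 of the 14 runs and 15.0% of its peaks were in them, compared with 5.29% in the left arm and 5.81% in the centre. The 2 longest by span neighboured each other, with 4 peaks in V:18706378-18712012 (5635 bp) and 6 in V:18718162-18725462 (7301 bp). Their widest peak, V:18707062-18708988 at 1927 bp, was also the widest on V (authors' score 1.86e-08). It had a partner in the list of replicate 2 (score 0.000288), as did no other of the 10, and 1 in 10 is near the 15.0% of all series-wide peaks that had one. Without these 10 peaks the right arm exceeded the centre in short gaps by 8.21 points (1.88 to 16.1), and its median gap was 15554.5 bp. With all runs left out the excess was 7.13 points (1.89 to 14.4) and the median gap was 21740.5 bp in the right arm, against 20922 bp in the centre, so the order of the medians turned round, which removal of short gaps favours by construction. Another run of the right arm, V:16707540-16710480, differed from these: 3 of its 4 peaks were in both replicate lists. The run V:19519451-19521896 held a peak with a score of 9.23e-12.

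The longest stretches of V without a series-wide peak were V:2285546-2589647 in the left arm (304102 bp), V:19059389-19324518 in the right arm (265130 bp) and V:15191226-15426595 in the centre (235370 bp). Neither replicate list had a peak in any of the 3. This was largely fixed in advance, since only 4 replicate 1 peaks and 0 replicate 2 peaks on V lay outside the series-wide list.

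Peaks of the right arm also had a larger median width than those of the left arm and the centre of V. The median width was 270 bp in the right arm (220 to 330) and 198.5 bp in the left arm (186 to 218), against 205 bp in the centre (195 to 219). The upper quartile was 428 bp in the right arm, 292.2 bp in the left arm and 317 bp in the centre. The replicate lists had the same order for the right arm and the centre, with medians of 398 bp over 17 peaks against 285.5 bp over 42 in replicate 1, and 382 bp over 16 peaks against 225 bp over 27 in replicate 2. The intervals of these medians overlapped in both lists. Without the runs the median of the right arm was 259 bp in the series-wide list, against 205 bp in the centre. On V as a whole the median was 210 bp (200 to 221), against 232 bp on I to IV (224 to 241), 223 bp on I, 266 bp on II, 215 bp on III and 251.5 bp on IV. In zones of the same fractions, the right sides had 239 bp on I, 261 bp on II, 204.5 bp on III and 240 bp on IV. The centres of II (290.5 bp) and IV (281 bp) exceeded the right arm of V. Those of I (206.5 bp) and III (214 bp) did not. The widths were not tested. Of the 5 widest peaks of V, 3 were in the right arm. Besides the 1927 bp peak these were V:19631585-19633143 (1559 bp, score 7.40e-05) and V:18723232-18724628 (1397 bp, 8.23e-05), and neither was in a replicate list. The others were V:5284009-5285456 in the left arm (1448 bp, 1.14e-12), called in both replicates, and V:15426596-15427985 in the centre (1390 bp, 0.000122), called in neither. Peaks under 50 bp numbered 57 on V (9.05%), with 23 in the left arm, 10 in the right arm and 24 in the centre, and 4 of the 57 were in a replicate list, where 15.0% of all series-wide peaks were.

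**Figure D3:**
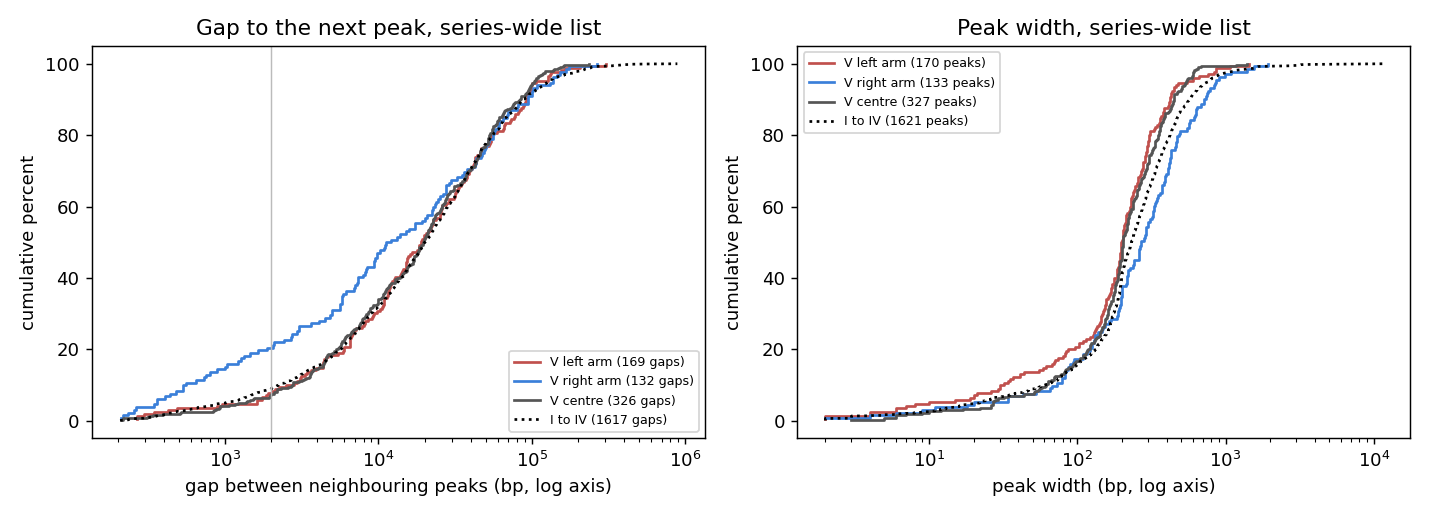
Cumulative percent of gaps between neighbouring peaks (left panel, vertical line at 2000 bp) and of peak widths (right panel) in the series-wide list, for the 3 zones of chromosome V and for I to IV, on log axes in bp. The right arm has 20.5% of its gaps under 2000 bp, above the other curves, and its widths lie to the right, with a median of 270 bp.

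Replicate support did not differ between the zones by more than the counting error. A series-wide peak was counted as supported when it overlapped a peak of a replicate list by at least 1 bp, which 15.0% of all 2836 peaks did. On V 105 of 630 peaks were supported (16.7%, 95% Wilson interval 14.0 to 19.8). The share was 28 of 170 in the left arm (16.47%) and 23 of 133 in the right arm (17.29%), against 54 of 327 in the centre (16.51%). The right arm minus the centre came to 0.780 points (-6.26 to 8.95), and the left arm minus the centre to -0.0432 points (-6.58 to 7.23). Peaks in both replicate lists were 4.69% of the whole list. On V there were 29 (4.60%), with 7 in the left arm (4.12%) and 10 in the right arm (7.52%), against 12 in the centre (3.67%). Per Mb that is 1.17 and 2.28, against 1.14. The share of the right arm was 3.85 points above the centre, with an interval of -0.439 to 9.82 that included 0. Replicate 1 alone supported 51 peaks of V and replicate 2 alone 25. The imbalance was greatest in the left arm, with 17 and 4, and smallest in the right arm, with 7 and 6.

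Against I to IV, where 217 of 1621 peaks were supported (13.4%), V was 3.28 points higher (0.0600 to 6.77). The interval included 0 with IV left out (2.09 points, -1.24 to 5.67) and under 4 other settings, with values of 0.120 to 3.02 points, the lowest with replicate 2 alone (-2.31 to 2.87). V was 10.5 points above IV (5.78 to 14.5) and 4.36 above I (0.225 to 8.39), but with replicate 2 alone both intervals included 0, at 2.87 points (-1.40 to 6.25) and 0.954 points (-2.31 to 4.11), while the intervals against II (2.56 points) and III (-0.645 points) included 0. For peaks held by both replicates V had 4.60%, against 4.13% on I to IV, a difference of 0.470 points (-1.28 to 2.58). The sources used here do not say whether the series-wide calls used the replicates' reads; if they did, this support is not independent.

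Read from the replicate lists, 29 of the 83 replicate 1 peaks on V overlapped a replicate 2 peak (34.9%), where 42.7% of the whole list of replicate 1 did. On I to IV the share was 46.5%, and V minus I to IV came to -11.6 points with an interval of -23.7 to 1.60. The share was 7 of 24 in the left arm (29.2%) and 10 of 17 in the right arm (58.8%), against 12 of 42 in the centre (28.6%). The right arm stood 30.2 points above the centre, with an interval of 2.95 to 52.9. Of the 54 replicate 2 peaks on V, 29 overlapped a replicate 1 peak (53.7%, background 53.5%), and there the right arm (10 of 16, 62.5%) stood 18.1 points above the centre (12 of 27, 44.4%), with an interval of -12.0 to 43.5. The interval therefore excluded 0 in 1 of the 2 lists, and both lists count the same matched regions, so they are not separate readings. Of the 10 matched regions in the right arm, 3 lay in the run V:16707540-16710480. Regions this close are not independent, which makes these intervals too narrow. All 54 replicate 2 peaks on V were in the series-wide list (background 95.7%), as were 79 of the 83 of replicate 1 (background 94.8%). The 4 peaks it lacked were all in the centre, at V:6856940-6856963, V:10206622-10206632, V:11217568-11217923 and V:13429181-13429918. They were 24, 11, 356 and 738 bp wide, with scores of 0.000579, 0.000396, 0.000272 and 0.000636, and replicate 2 had none of them.

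Support followed strength in each zone, a relation that would be partly built in if the series-wide calls used the replicates' reads. The authors' score is the caller's p-value or q-value, so strong peaks have small scores, and medians are given as −log10. Among peaks of V in both replicate lists the median was 8.75, against 3.53 for peaks in neither. In the left arm it was 8.75 (7 peaks) against 3.49, in the right arm 8.05 (10 peaks) against 3.53, and in the centre 9.99 (12 peaks) against 3.54. Median widths were 471 bp for peaks of V in both lists, 297 bp in replicate 1 alone, 221 bp in replicate 2 alone and 199 bp in neither. Of the 50 best-scored peaks of V, 45 were supported (90%, 78.6 to 95.7) and 24 were in both lists. The next 50 had 22 supported peaks (44%) and 0 in both, and the following groups of 50 had 11, 11, 7 and 2. The 5 peaks among the best 50 with no partner in either list were V:9856129-9856667 (score 2.20e-08), V:7993296-7993365 (6.89e-08) and V:11532003-11532212 (1.01e-07) in the centre, and V:20645417-20645985 (2.47e-07) and V:20708294-20709281 (3.49e-07) in the right arm. The median score of all peaks was close between zones, at 3.60 in the left arm and 3.64 in the right arm, against 3.70 in the centre. Scores on V stayed below 0.001 in each list, and the lowest series-wide value was 3.01 on this scale. These medians, and those of peaks in neither list, lie close to that floor, which limits how far they could differ.

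**Figure D4:**
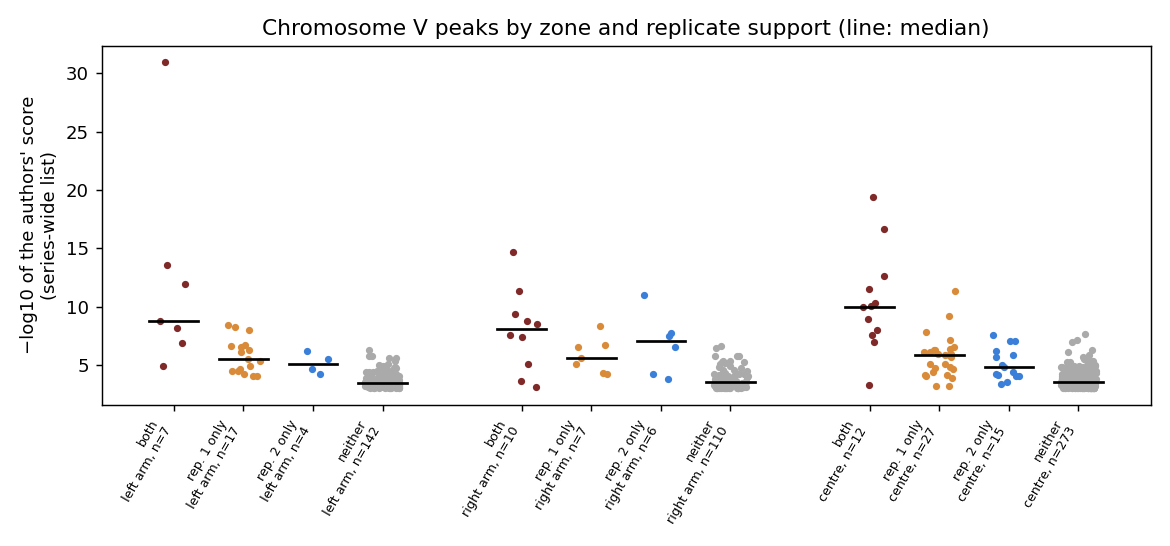
Each point is a series-wide peak on chromosome V, placed by zone and by which replicate lists hold it, with the −log10 of the authors' score on the vertical axis and lines at the medians. Peaks in both lists have medians of 8.75, 8.05 and 9.99 in the left arm, right arm and centre. Peaks in neither list have medians near 3.5, close to the lowest value on V of 3.01.

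Strong sites, with a score below 1e-10, were 3.49% of the whole list. Chromosome V had 13 (2.06%, 1.21 to 3.50), or 0.622 per Mb, against 0.996 on I, 0.851 on II, 1.31 on III and 0.629 on IV. As a share of peaks V was the lowest of the autosomes, with 2.93% on I, 3.33% on II, 3.67% on III and 4.8% on IV. The interval of each of these shares overlapped that of V, on IV only in part (2.72 to 8.43). Overlap of intervals does not show that shares are alike, and the differences were not tested. The strong sites of V numbered 3 in the left arm and 3 in the right arm, against 7 in the centre, or 0.5 and 0.683 against 0.667 per Mb. Of the 13, 11 were in both replicate lists, and their widths ran from 283 to 1448 bp with a median of 578 bp. The closest pair, V:11314093-11314375 and V:11343660-11344829, had midpoints 30010.5 bp apart, and neighbouring strong sites were a median of 1510718.5 bp apart. The last peak inside the limit was V:14118937-14119408 (9.23e-11) and the first outside it V:14685644-14686089 (1.14e-10), both in the centre and both called in each replicate.

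The strongest peak of the chromosome was V:3098758-3099621 in the left arm, 864 bp wide. Its score was 1.12e-31 in the series-wide list (number 9 of that list, counted from the best), 5.20e-27 in replicate 1 (number 7) and 1.61e-36 in replicate 2 (number 5). It led V in all 3 lists. Both other strong sites of the left arm were in both replicates as well. The peak V:1104398-1105237 had scores of 2.52e-14 in the series-wide list, 1.82e-08 in replicate 1 and 5.70e-10 in replicate 2. For V:5284009-5285456 these were 1.14e-12, 2.84e-11 and 2.39e-24, and the score of replicate 2 was the smallest of the 3.

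In the right arm, 2 of the 3 strong sites lay near the end of the chromosome. The peak V:20874178-20875016 had scores of 2.22e-15 in the series-wide list, 7.28e-09 in replicate 1 and 3.76e-09 in replicate 2. Further inward, V:20773474-20774051 had 4.38e-12, 1.47e-05 and 2.32e-05. The replicates gave close scores at both. The remaining site, V:19519451-19519738 (9.23e-12), was in the list of replicate 2 only (8.61e-05).

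The centre began its order with V:9343993-9344500, which had a score of 3.81e-20 in the series-wide list, 1.27e-08 in replicate 1 and 2.84e-10 in replicate 2. The next, V:8790104-8790791, had 2.16e-17, 2.88e-10 and 9.62e-06, and its width was 674 bp in replicate 1 but 225 bp in replicate 2. The peak next in rank nearby, V:9546817-9547113, had 2.12e-13, 3.06e-06 and 1.56e-06. These replicate scores differ in which replicate is stronger, and neither replicate led at all 3. Further along, V:14769367-14769759 had 2.75e-12 in the series-wide list, 1.41e-18 in replicate 1 and 3.34e-24 in replicate 2. The peak V:11343660-11344829 (4.13e-12) had only a weak partner, in replicate 1 (0.000947, number 316 of 328). The sites V:11314093-11314375 (4.47e-11) and V:14118937-14119408 had partners in both lists with scores between 4.04e-06 and 0.000207.

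Ranks 14 to 20 of V had scores between 1.14e-10 and 3.09e-09, and all 7 had a replicate partner. Those in both lists were V:14685644-14686089 and V:10807897-10808158 in the centre, V:18118955-18119667, V:16707540-16708167 and V:18934543-18935322 in the right arm, and V:4737677-4737980 in the left arm. The peak V:8500404-8500706 in the centre was in replicate 1 only. Over the 20 best, 4 were in the left arm, 6 in the right arm and 10 in the centre, and 17 were in both replicate lists.

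The 29 regions of V found in both replicates paired 1 to 1. Their replicate scores had a Spearman rho of 0.760, and the −log10 scores a Pearson r of 0.932, given as descriptions over regions of the same pair of libraries. Replicate 2 had the smaller score in 16 and replicate 1 in 13. The midpoints differed by a median of 42.5 bp and at most 224.5 bp, and 17 of the 29 lay within 50 bp. The narrower call was a median of 82.8% as wide as the wider one.

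In 5 of these regions the series-wide score was weaker than both replicate scores (17.2% of 29 on V, against 8 of 67, or 11.9%, on I to IV). In the left arm V:264905-265982 had 1.13e-05 in the series-wide list, 1.71e-11 in replicate 1 and 6.03e-13 in replicate 2. In the right arm V:18400225-18400690 had 0.000244 in the series-wide list, 2.89e-08 and 4.45e-10 in the replicates, and V:16708425-16709140 had 0.000749, 0.000135 and 2.35e-06. In the centre V:12509903-12510290 had 0.000465, 0.000190 and 6.71e-09, and the fifth was V:14769367-14769759, given above. At V:16708425-16709140 and V:12509903-12510290 the score of replicate 1 was itself weak and close to the series-wide score. The lists were called separately and their scores are not on a known common scale, so the contrast is a description. The remaining 24 had a series-wide score smaller than at least 1 replicate score.

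Edges called within 10 bp of each other in both replicates, at start and end, were found in 5 of the 29 regions of V (17.2%), against 11 of 71 on I to IV (15.5%). They were V:3098758-3099621, V:264905-265982, V:12509903-12510290, V:14769367-14769759 and V:18401422-18401793, and the largest edge differences between the replicates were 9, 2, 4, 1 and 3 bp. Of these 5, 3 were also among the regions with a weaker series-wide score. Next to V:18400225-18400690 in the right arm, V:18401422-18401793 had a series-wide score of 8.24e-06. The edge limit and the score contrast were described after the values were seen, and they carry no test.

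**Figure D5:**
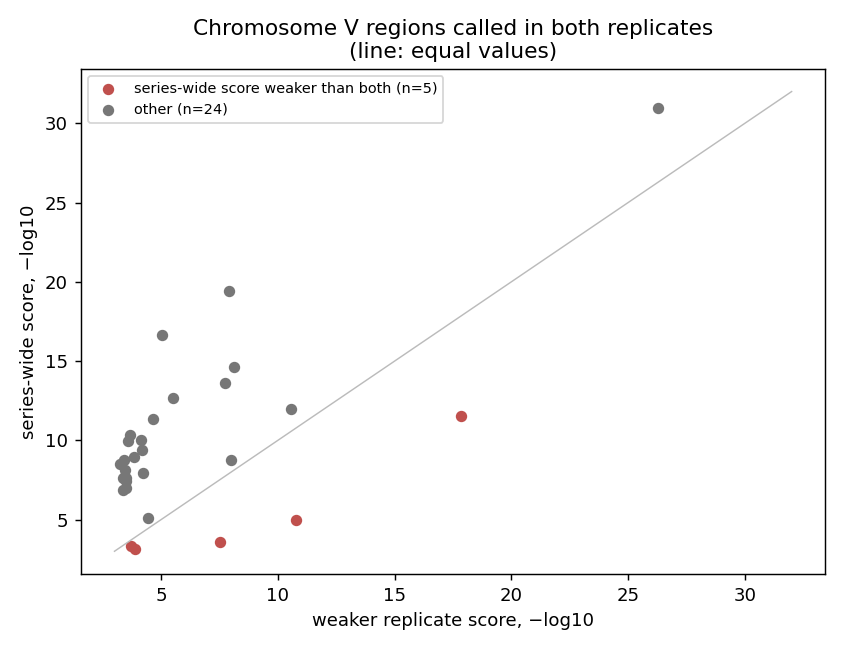
Series-wide score against the weaker of the replicate scores for the 29 regions of chromosome V called in both replicates, each as −log10, with a line at equal values. The 5 red points, whose series-wide score was weaker than both replicate scores, lie below the line, and the other 24 lie above it.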

How the data were processed

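ChIP-seq of tagged NHR-11 was analysed from 3 peak lists: ChIP replicate 1, ChIP replicate 2 and the series-wide list. Per the file headers and columns, the authors called peaks with PeakSeq on WormBase WS220 and deposited 1 p-value or q-value per peak, called the authors' score. Which of these it is, the caller's version and settings, the aligner, the controls and how the series-wide calls were derived were not given in the sources used. Fixation used 2% formaldehyde, per the labels' protocols. The input samples entered only through the authors' calls.

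Peaks were assigned to zones by midpoint. The rightmost peak end over the 3 lists served as chromosome length (20894334 bp for V). Densities were compared by two-sided exact binomial tests, adjusted over 3 zone pairs or 5 autosome comparisons within a list (threshold 0.05). Shares carry 95% Wilson intervals, their differences 95% Newcombe intervals, and medians 95% order-statistic intervals. Intervals cover counting error only. The functions were tested on simulated data. Python 3.11.15, numpy 2.4.6, pandas 2.3.3 and scipy 1.17.1 were used.

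The named regions were the 20 best-scored peaks of V, replicate peaks lacking in the series-wide list, the 5 widest peaks, the 3 longest gaps, the 3 densest bins and the neighbours of the 1e-10 limit. Others were chosen after their values were seen. Chromosome, zones, limits and alternatives were chosen with earlier results of these data known.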

Additional observations from a re-analysis of the deposited data

How the results depend on the processing

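Of 160 alternative values on chromosome V, 122 were counted as unchanged. They kept the call of the test, or without a test lay inside the interval of the main value or equalled the main count. Where the main value had not passed a test, a change of direction alone was not counted. Alternatives that left out runs or chromosome ends were chosen after seeing the data. No zone difference in density passed the test under any alternative. Some of these ratios changed direction, such as left over right arm with peaks within 10000 bp counted once (1.22). Right arm over centre did so in the list of replicate 2 (1.42). In covered base pairs, which have no test, right arm over centre moved to 1.40, left over right arm to 0.631 and V over IV to 1.52, and V over II (0.738) and V over I to IV (0.938) reversed. V over I to IV also reversed without IV (0.955), and lost its call in the best-scored 50% (1.06), with peaks within 10000 bp counted once (1.08) and in the list of replicate 2. V over II lost it without peaks under 50 bp (1.14), in the best-scored 50% (1.05) and with peaks within 10000 bp counted once (1.16). V over I lost it without peaks under 50 bp (0.894) and in the best-scored 50% (0.860). Without replicate 1 or without replicate 2, that is in the other replicate's list, the ratios were 0.927 to 1.30 over I, reversed at 1.30, 1.01 to 1.73 over II, 0.712 to 0.842 over III and 1.10 to 1.56 over I to IV. The cause was not tested.

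In the best-scored 50% 33% of the peaks of V were supported, and V stood 8.09 points above I to IV, 9.30 above I, 7.88 above II (interval including 0) and 21.6 above IV. With 1 replicate list the supported share was 8.57% to 12.7%, V minus IV 2.87 to 7.87 points, V minus I to IV 0.120 to 3.63 and V minus I 0.954 to 4.30, and with replicate 2 alone all 3 intervals included 0. The interval of V minus I to IV also included 0 with 50% overlap (2.17 points), midpoints within 200 bp (2.86) and no peaks under 50 bp (3.02), and that of V minus I with 50% overlap (3.12) and no peaks under 50 bp (3.99). Strong sites on V numbered 24 at a score below 1e-8 and 3 below 1e-15. In the best-scored 50%, median gaps were 40163 bp on V, 46155 bp in the left arm, 28135.5 bp in the right arm and 40027 bp in the centre, and median widths 265, 229.5, 370 and 250 bp. Without peaks under 50 bp the median width on V was 224 bp. No paired analysis was possible because only the ChIP samples have peak lists. Read depth is unknown, so what it adds to weak, unsupported peaks cannot be given.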
